A study of Homo sapiens with 8 samples.

Results

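The genes of the proteasome, the protease complex that degrades ubiquitin-tagged proteins, were followed in neuroblastoma cells after knockdown of METTL14, and were taken as all rows of the count table named PSMA, PSMB, PSMC, PSMD, PSME, PSMF or PSMG followed by a number. This rule gave 48 of 56303 genes, and it left out 37 further rows with such names, which are pseudogenes, antisense genes and genes such as PSMC3IP that encode no subunit. All cells were SK-N-BE(2), an established human neuroblastoma cell line, and carried 1 of 2 kinds of shRNA, a control (sh-NC) or one aimed at METTL14 (shMETTL14), from a lentiviral vector. Each arm had 2 cultures, and each culture gave 1 m6A immunoprecipitate (IP) library and 1 input library of polyadenylated RNA, 8 libraries in all. The labels do not say whether the shMETTL14 cultures carried the same shRNA or whether the cultures were grown independently, so p-values measure only the spread between these samples, which may be technical. Adrenergic neuroblastoma markers were present in every library, with MYCN at 4224 to 4452 CPM (counts scaled to a common library size) in the inputs. At an adjusted p under 0.05 in edgeR's quasi-likelihood test, 6 of 9 such markers were higher in shMETTL14 input and 0 were lower. Over all genes tested the shares were 11.7% and 12.3%. The shift of these markers moves with the comparison below, and its part in it was not tested. Among 5 markers of blood cells and 3 of epithelial cells, CD3E, LYZ, KRT5 and CDH1 were at or near 0 in every library, and EPCAM was the highest at 4.87 to 6.31 CPM. In bulk RNA, fewer cells of a type and less RNA per cell cannot be told apart.

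The 26S proteasome joins a barrel, the 20S core, to a 19S cap. The core stacks rings of alpha subunits (PSMA), which gate the entrance, on rings of beta subunits (PSMB), of which PSMB5, PSMB6 and PSMB7 carry the cutting sites. The cap holds a ring of ATPases (PSMC) that unfolds substrates, and further PSMD subunits that bind ubiquitin chains and remove them. PSME genes encode activators that open the core, PSMF1 a core-binding regulator, and PSMG genes chaperones of core assembly. METTL14 is the partner of METTL3 in the enzyme that places m6A on messenger RNA, and a gene's share of IP reads over its share of input reads (IP over input) rises with its m6A relative to the other genes.

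The total counts ran from 32027379 to 47205265 per library, and the proteasome genes took 0.348% to 0.427% of them. METTL14 itself was at 49.5 and 48.8 CPM in the sh-NC inputs and at 13.7 and 14.6 CPM in the shMETTL14 inputs. Its input RNA fell by 1.79 on the log2 scale (SE 0.07, adjusted p 1.28e-15, edgeR's quasi-likelihood test). The scaling of CPM used factors from TMM, a method that takes the bulk of genes as unchanged between libraries.

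Most proteasome genes were abundant in these cells. In sh-NC input, the 46 genes that passed the filter on low counts had a median level of 16.2 CPM per kilobase, against 2.86 for all genes tested, and 19 of the 46 lay in the top 10% of tested genes. PSMC3, an ATPase of the cap, was highest, at 114.1 and 114.4 CPM per kilobase in the sh-NC cultures. The alpha subunit PSMA7 followed, at 91.9 and 102.3 CPM per kilobase, and then the ubiquitin receptor PSMD4, at 87.2 and 84.6 CPM per kilobase. The cultures of these 3 genes did not overlap in sh-NC. At the other end, the testis alpha subunit PSMA8 had 0 counts in all 8 libraries, which allows up to 0.0636 to 0.0937 CPM, and the thymus beta subunit PSMB11 had 0 to 2 counts per library; both limits cover counting error only, and both genes were left untested. The interferon-induced PSMB9 came next, at 0.619 and 0.451 CPM per kilobase.

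At the RNA level the constitutive catalytic subunits exceeded their immunoproteasome counterparts. Among the constitutive members, PSMB5 stood at 43.3 and 46.6 CPM per kilobase in sh-NC, PSMB6 at 21.0 and 23.2 and PSMB7 at 67.1 and 67.7. PSMB8, PSMB9 and PSMB10 are the counterparts that replace them in the immunoproteasome. Per kilobase, PSMB8 was at 18.2% and 16.1% of PSMB5 in the sh-NC cultures and at 13.8% and 15.3% in the shMETTL14 cultures, where both shares lay below both sh-NC shares. PSMB9 was at 2.95% and 1.95% of PSMB6 in sh-NC and at 2.63% and 1.91% in shMETTL14, so the arms overlapped. PSMB10 was at 5.31% and 6.76% of PSMB7 in sh-NC and at 5.64% and 5.38% in shMETTL14, again overlapping. PSMB10 and PSMB8 share 34.8% and 21.2% of their exonic bases with other genes, so both levels are uncertain.

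**Figure D1:**
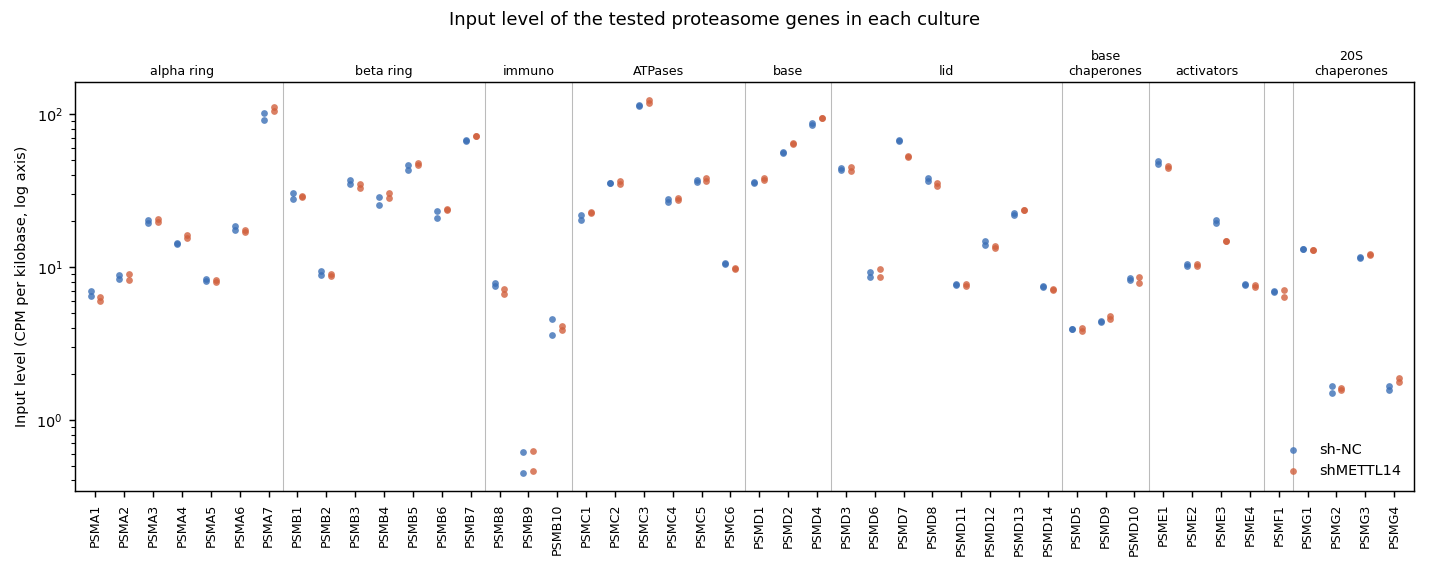
Input level of the 46 tested proteasome genes in CPM per kilobase on a log axis, 1 point per culture, blue for sh-NC and orange for shMETTL14, ordered by role. The 3 immunoproteasome genes lie below every constitutive beta gene in all cultures, and PSMC3 lies at the top.

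The remaining roles filled the range between. The cap's deubiquitinase PSMD14 was the lowest of the lid, at 7.52 and 7.44 CPM per kilobase in sh-NC, where the lid median was 18.4. Of the activators, PSME1 was at 49.2 and 47.4, PSME3 at 20.2 and 19.3, PSME2 at 10.1 and 10.4 and PSME4 at 7.79 and 7.62 CPM per kilobase, an order with no overlap between neighbours in sh-NC. PSMF1 stood at 6.97 and 6.84 CPM per kilobase. The assembly chaperones PSMG1 and PSMG3 were at 13.2 and 11.6 CPM per kilobase on average, and PSMG2 and PSMG4 at 1.59 and 1.62, a difference smaller than the spread between cultures. The members lie on 17 chromosomes, with 8 on chromosome 14 and 7 on chromosome 17.

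The first comparison asked whether input RNA, the measure of transcript level, differed between shMETTL14 and sh-NC. Of the 46 tested members 5 were higher (background over all genes tested 11.7%) and 2 were lower (background 12.3%) at an adjusted p under 0.05 with edgeR's quasi-likelihood test, so neither share exceeded that of genes in general. The lid subunit PSMD7 and the activator PSME3 fell, and the genes that rose were the alpha subunits PSMA4 and PSMA7, the ATPase PSMC1 and the base subunits PSMD2 and PSMD4. The members' median log2 change was 0.01, against 0.00 for all genes tested. The median size of the change without its sign was 0.0746 on the log2 scale for members and 0.181 for all genes tested. Genes with a mean of at least 1000 input counts were also read separately. Among those 6856 genes 44.5% were called in either direction and the median size was 0.118, whereas 7 of the 37 members at that depth were called and their median size was 0.0842.

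PSME3 encodes an activator ring of the nuclear proteasome that acts without ubiquitin. Its input level was 104.0 and 99.6 CPM in sh-NC and 76.8 and 76.3 CPM in shMETTL14. Both shMETTL14 cultures lay below both sh-NC cultures, and the fall was 0.40 on the log2 scale (log2 change -0.40, SE 0.04, adjusted p 1.39e-07, edgeR's quasi-likelihood test). The other activators had log2 changes of -0.09 (PSME1), 0.01 (PSME2) and -0.03 (PSME4), none past the threshold. The annotated PSME3 gene (GRCh38, chr17:42824385-42843758, plus strand) shares 5.82% of its exonic bases with BECN1 on the other strand, whose input log2 change was 0.09.

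PSMD7 encodes the lid subunit that pairs with the deubiquitinase PSMD14. Its input level was 187.0 and 183.3 CPM in sh-NC and 146.1 and 143.3 CPM in shMETTL14. Again the arms did not overlap, with a log2 change of -0.35 (SE 0.04, adjusted p 1.21e-07, edgeR's quasi-likelihood test). Its partner PSMD14 changed by -0.06, not past the threshold, and no other lid gene was called. PSMD7 (GRCh38, chr16:74296775-74306288, plus strand) shares 30.7% of its exonic bases with the opposite-strand gene AC009120.6, whose counts amounted to 46.5% of those of PSMD7 and whose input change was -0.44 (adjusted p 7.05e-08, edgeR's quasi-likelihood test). From read density in nested genes, reads appear to have been counted for both strands, so the reads in the shared stretch cannot be assigned. With all counts of AC009120.6 subtracted, PSMD7 was at 97.1 and 92.5 CPM in sh-NC input and at 80.9 and 75.6 CPM in shMETTL14 input, still with no overlap and with a log2 difference of -0.28 between the arm sums. Only 29.85% of the exonic bases of AC009120.6 are shared with other genes, so this subtraction is extreme and also removes any reads from its unshared stretches.

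The rises were small. PSMD2, the base subunit that docks ubiquitin shuttles, was at 306.3 and 311.2 CPM in sh-NC and at 348.8 and 355.5 CPM in shMETTL14, a log2 change of 0.20 (SE 0.03). PSMD4, a ubiquitin receptor, went from 264.0 and 256.0 CPM to 287.2 and 286.9 CPM, a log2 change of 0.15. The third base subunit, PSMD1, had a log2 change of 0.09 that missed the threshold. PSMA4 stood at 100.6 and 99.3 CPM in sh-NC and at 114.2 and 108.0 CPM in shMETTL14, and PSMA7 at 160.8 and 179.0 CPM and at 184.0 and 194.2 CPM, each a log2 change of 0.16. PSMC1 was at 134.6 and 125.1 CPM in sh-NC and at 139.8 and 141.2 CPM in shMETTL14, with a log2 change of 0.12 and the largest adjusted p of the 7 calls, 0.0341 in edgeR's quasi-likelihood test. In each of these genes both shMETTL14 cultures lay above both sh-NC cultures. Without sh-NC culture 1 PSMA7 was at 0.08 (adjusted p 0.204), and without sh-NC culture 2 PSMC1 was at 0.07 (adjusted p 0.333), both no longer called by edgeR's quasi-likelihood test. DESeq2 did not call PSMC1 either (adjusted p 0.0853), and with no filter beyond 1 count PSMA4, PSMA7 and PSMC1 were not called. Without shMETTL14 culture 1 only PSMD2 of the 5 was still called, and without culture 2 none was, whereas PSMD7 and PSME3 were called in every alternative run, except that PSMD7 leaves the set when only members sharing under 10% of exonic bases are kept.

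PSMC1 has the largest exon overlap of the members. The gene (GRCh38, chr14:90256495-90275429, plus strand) shares 75.8% of its exonic bases with NRDE2 on the other strand, whose input log2 change was -0.03. With all NRDE2 counts subtracted, PSMC1 was at 41.5 and 38.7 CPM in sh-NC and at 51.7 and 54.5 CPM in shMETTL14, a log2 difference of 0.40 against the fitted 0.12. Only 26.6% of the exonic bases of NRDE2 are shared, so this subtraction is extreme and also removes any reads from its unshared stretches. PSMC1 values are therefore uncertain in size.

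No gene of the constitutive beta ring, the immunoproteasome, the chaperones or PSMF1 was called in input. The log2 changes of the 7 constitutive beta genes ran from -0.09 to 0.13, with PSMB5 at 0.08, PSMB6 at 0.12 and PSMB7 at 0.10. Those of PSMB8, PSMB9 and PSMB10 were -0.15, 0.02 and -0.03. For PSMB9 the SE was 0.26, so a change of the size seen for PSME3 would not have been detectable at this depth. PSMF1 stood at -0.03, and the assembly chaperones PSMG1 to PSMG4 at -0.02, 0.01, 0.06 and 0.17. Interferon-linked genes, from a list of 6, had 0 genes higher and 3 lower in shMETTL14 input (all genes tested, 11.7% and 12.3%), B2M (-0.36) and NLRC5 (-0.33) among them.

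The second comparison asked which proteasome transcripts took a larger share of the m6A IP than of the input. Under TMM scaling the members lay low in this ratio: in sh-NC 7 of 46 were higher in the IP (background 29.1%) and 33 were lower (background 29.8%) at an adjusted p under 0.05 in edgeR's quasi-likelihood test. In shMETTL14 8 were higher (background 28.9%) and 32 were lower (background 29.1%). The members' median log2 IP over input was -0.36 in sh-NC and -0.39 in shMETTL14, against -0.01 for all genes tested in each arm. These signs rest on the scaling. When the libraries were scaled on the 25% least enriched genes, a choice that by construction raises all other genes, the median of all genes moved to 0.90 in sh-NC and 0.85 in shMETTL14. The members' medians were then 0.55 and 0.48, with 37 and 38 members higher and 3 and 4 lower. The share of all genes called under that scaling is not given here, so these counts only describe the members. A library factor shifts all genes nearly alike, so the gap of 0.35 and 0.38 between members and all genes can barely move with the scaling, and its constancy is no support. From here on "lower" and "higher" mean relative to the bulk of genes under TMM. In sh-NC 15 members lay under the lower quartile of all genes (-0.50) and 3 above the upper quartile (0.45). Among genes with at least 1000 input counts 40.6% were lower in the IP, against 26 of 37 members.

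**Figure D2:**
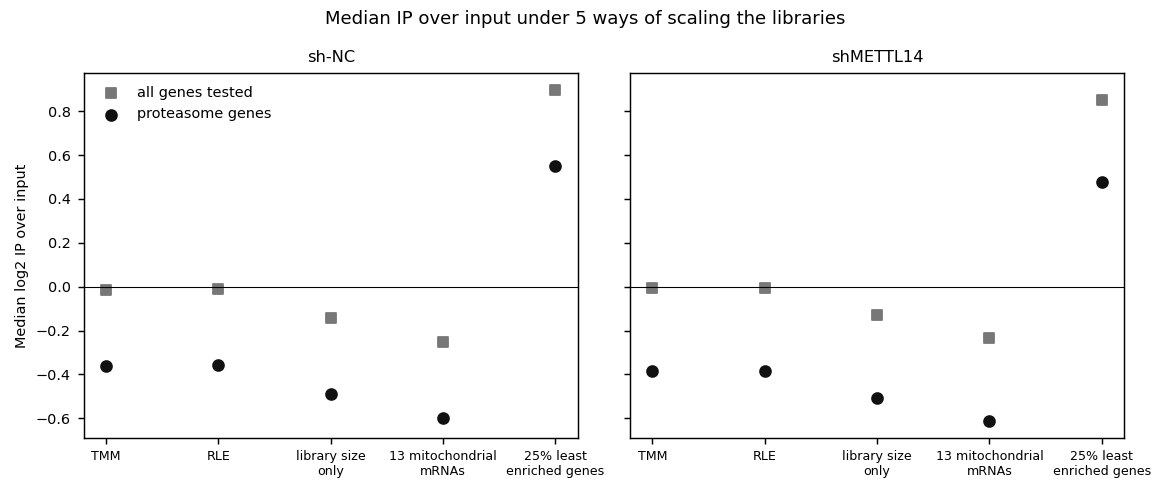
Median log2 IP over input of the 46 tested proteasome genes (circles) and of all genes tested (squares) in each arm, under TMM, RLE, library size only, 13 mitochondrial mRNAs and the 25% least enriched genes. Both medians move together with the scaling and turn positive under the last, and the gap between them (0.35 in sh-NC, 0.38 in shMETTL14) is all but fixed by arithmetic, since a library factor moves all genes nearly alike.

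Among the roles with more than 1 gene, the core's beta ring lay lowest relative to the bulk of genes. All 7 constitutive beta genes were lower in the IP in both arms, with median log2 values of -0.91 in sh-NC and -0.90 in shMETTL14. PSMB4, a structural beta subunit (GRCh38, chr1:151399534-151401944, plus strand, no shared exonic base), had the lowest ratio of all members. Its IP CPM were 0.353 and 0.358 times its input CPM in the sh-NC cultures and 0.344 and 0.374 times in the shMETTL14 cultures. Its log2 value in sh-NC was -1.50 (SE 0.07, adjusted p 1.70e-25, edgeR's quasi-likelihood test). PSMB3 stood at -1.11 and PSMB2 at -1.03, and of the catalytic subunits PSMB6 stood at -0.90, PSMB5 at -0.57 and PSMB7 at -0.34. The immunoproteasome PSMB8 stood at -0.36 in sh-NC and -0.54 in shMETTL14, PSMB9 at -0.16 and -0.18 with neither past the threshold, and PSMB10 at -0.30 in sh-NC, where it was called (adjusted p 0.0446, edgeR's quasi-likelihood test), and at 0.05 in shMETTL14, where it was not. The sh-NC call of PSMB10 was lost with the replicate block (adjusted p 0.0594, edgeR's quasi-likelihood test), with DESeq2 (adjusted p 0.123), with no filter beyond 1 count and with a culture left out other than sh-NC culture 1, and without sh-NC culture 2 its value was -0.06.

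The alpha ring was split. PSMA4 (GRCh38, chr15:78540405-78552419, plus strand, no shared exonic base) had the highest IP over input of the members as counted (PSMC1 lies above it under the extreme case of all NRDE2 counts subtracted, as given with the cap), with IP CPM 1.88 and 1.95 times the input CPM in sh-NC and 1.80 and 1.88 times in shMETTL14. Its log2 value was 0.94 in sh-NC (SE 0.04) and 0.88 in shMETTL14. The alpha subunit PSMA7 had ratios of 0.493 and 0.450 in sh-NC against 0.487 and 0.444 in shMETTL14, a log2 value of -1.09 in sh-NC. The 2 alpha genes with a rise in input therefore lay at opposite ends of IP over input. PSMA1 stood at -1.06 in sh-NC, but it shares 24.7% of its exonic bases with RP11-140L24.4, and its value is uncertain. In all, 2 alpha genes were higher and 5 lower in each arm.

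**Figure D3:**
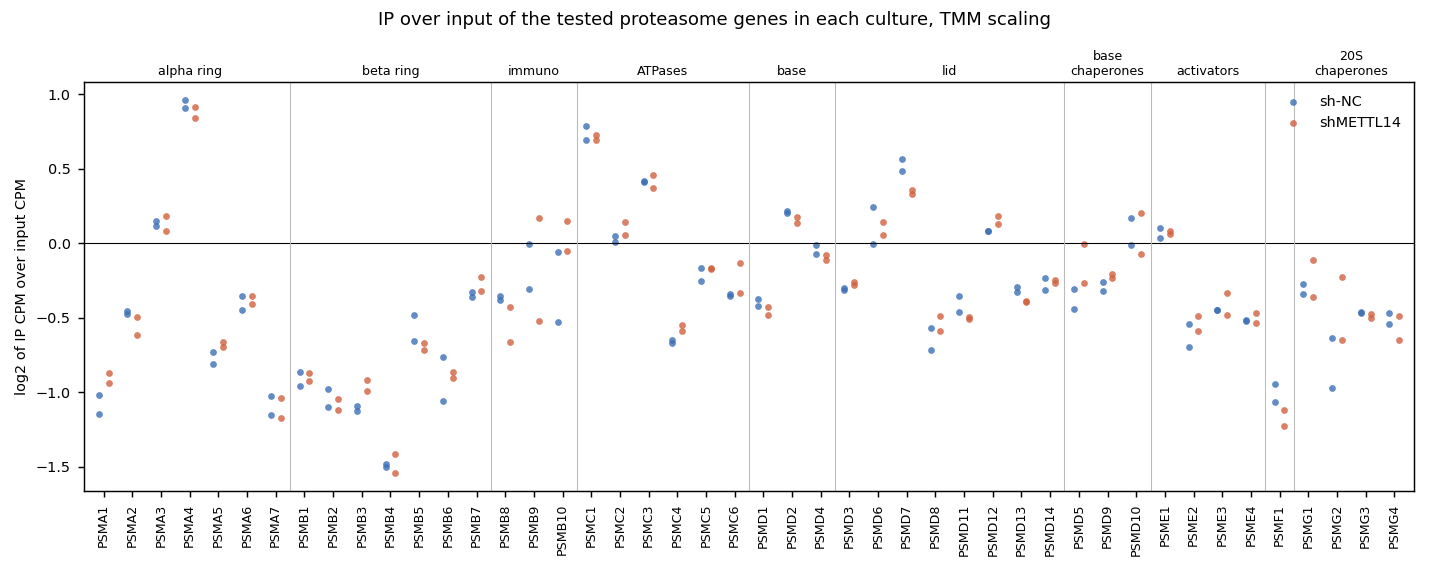
log2 of IP CPM over input CPM of the 46 tested proteasome genes under TMM scaling, 1 point per culture, blue for sh-NC and orange for shMETTL14, ordered by role. All constitutive beta genes lie below 0 under this scaling (not when scaled on the least enriched genes), and PSMA4, PSMC1, PSMC3 and PSMD7 lie clearly above in every culture.

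The 19S cap spread around 0. Of its 6 ATPases 2 were higher and 3 lower in sh-NC, and 3 were higher and 3 lower in shMETTL14. PSMC1 stood at 0.74 in sh-NC and 0.71 in shMETTL14, and after subtraction of NRDE2 its culture ratios were 2.68 and 2.995 in sh-NC against 2.60 and 2.32 in shMETTL14. PSMC3 was higher as well, with ratios of 1.339 and 1.332 in sh-NC against 1.372 and 1.292 in shMETTL14, a log2 value of 0.42 in sh-NC and 0.41 in shMETTL14. Of the base subunits, PSMD2 was higher, at 0.21 in sh-NC and 0.16 in shMETTL14, but under the scaling on 13 mitochondrial mRNAs it turned to -0.03 and -0.07. PSMD7 was the highest of the lid, with IP CPM 1.40 and 1.48 times the input CPM in sh-NC and 1.26 and 1.28 times in shMETTL14, and 5 of the 8 lid genes, PSMD14 among them at -0.27 in sh-NC, were lower in each arm.

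Most regulators and all 4 chaperones of core assembly (PSMG) lay below the bulk of genes under TMM. The cap's own chaperones did not all do so. PSMD5, PSMD9 and PSMD10 stood at -0.36, -0.29 and 0.08 in sh-NC and at -0.13, -0.22 and 0.07 in shMETTL14. When scaled on the least enriched genes, the activators that were lower under TMM (PSME2, PSME3 and PSME4) and the 4 PSMG chaperones turned to values above 0. These still lay below the all-gene median under that scaling in sh-NC. PSMF1 had ratios of 0.520 and 0.479 in sh-NC against 0.428 and 0.460 in shMETTL14, log2 values of -0.99 and -1.18. Of the activators PSME2 (-0.61 in sh-NC), PSME4 (-0.52) and PSME3 (-0.44) were lower in both arms, and PSME1 stood at 0.07, not past the threshold. The 4 assembly chaperones were lower in both arms, from -0.81 for PSMG2 to -0.30 for PSMG1 in sh-NC. PSMG2 and PSMG4 share 16.7% and 15.0% of their exonic bases with other genes, so both are uncertain.

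Correlations of these ratios with gene structure were weak. Across the 46 members, Spearman's rho of log2 IP over input in sh-NC was 0.234 with exonic length, 0.132 with the number of exon blocks, 0.111 with the longest block and 0.107 with the last block, against 0.122, 0.0209, 0.179 and 0.143 across all genes tested. The last exon block, from the merged annotated exons of a gene, had a median of 518.5 bases in members and 1005 bases in all genes tested. It need not be the last exon of the expressed transcript, where m6A is known to concentrate. These points share libraries and depth, and the correlations are descriptions only.

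The third comparison asked whether IP over input changed with METTL14 knockdown. In none of the 46 members did it pass an adjusted p of 0.05 in edgeR's quasi-likelihood test: 0 were higher (background 0%) and 0 lower (background 0.00436%, 1 of 22953 genes). At an unadjusted p under 0.05, 1 member was called, PSMD7, against a background of 6.34%. The DESeq2 fit also called 0 members. Among the 46 tested members, both shMETTL14 ratios lay below both sh-NC ratios in 11 and above both in 12. The same share over all genes is not given here, so these counts only describe the members. PSMD7, 1 of the 11, had a change of -0.18 (SE 0.06, unadjusted p 0.0021, adjusted p 0.562, edgeR's quasi-likelihood test). Without sh-NC culture 1 it passed the threshold. After subtraction of AC009120.6 its ratios were 1.45 and 1.58 in sh-NC against 1.21 and 1.36 in shMETTL14. The members' median change was 0.01, against 0.00 for all genes tested. TMM scaling centres each arm on the bulk of genes, so a loss of m6A shared by most transcripts would not appear here. The paper reports that total m6A fell in these cells after the knockdown. The comparison therefore shows only changes relative to other genes, and whether the members lost m6A along with them was not tested.

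The members at the ends of the change were PSMG2 (0.38, SE 0.23), PSMB10 (0.35, SE 0.18) and PSMD5 (0.23, SE 0.13) on the upper side, and PSMB8 (-0.18, SE 0.14), PSMD7 and PSMF1 (-0.18, SE 0.10) on the lower side. Apart from PSMD7 each had an adjusted p of 0.79 or more (PSMB10 0.794, PSMD5 0.803, PSMF1 0.821, PSMG2 0.826, PSMB8 0.871, edgeR's quasi-likelihood test). With 2 cultures per arm an exact permutation test of a single gene cannot give a p below 0.333. Between the arms, 6 members were higher in the IP in both and 31 were lower in both. No share of all genes called in both arms is given here, so these counts only describe the members. The members' log2 IP over input in the arms had Pearson's r of 0.973 across 46 genes, a description over genes that share length and sequence between the arms.

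**Figure D4:**
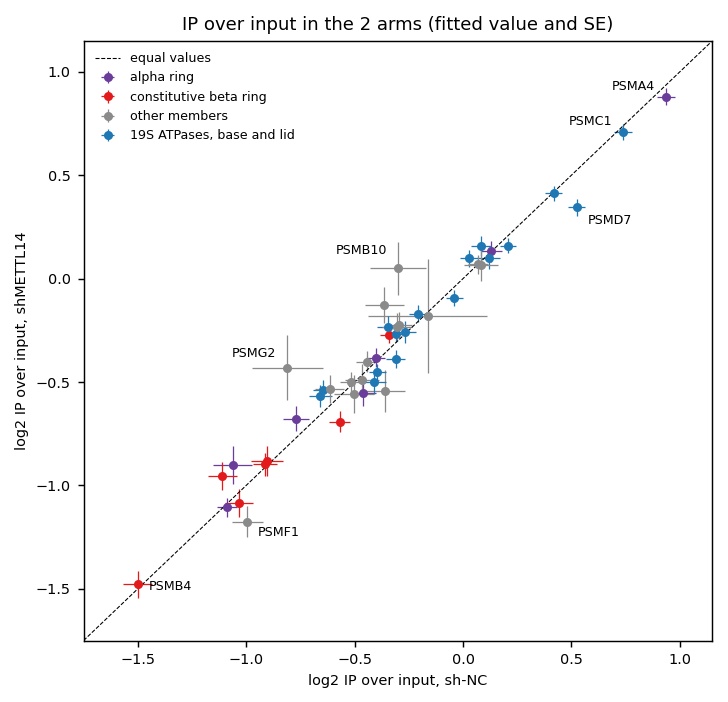
Fitted log2 IP over input with SE bars in sh-NC (horizontal) and shMETTL14 (vertical) for the 46 tested proteasome genes, coloured by complex part, with a dashed line of equal values. The genes lie along the line from PSMB4 (-1.50 and -1.48) to PSMA4 (0.94 and 0.88), and 0 of them had a change past the adjusted threshold; the signs depend on the TMM scaling.

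Genes that work with the proteasome were read from 5 lists of 30 genes in all. In input 4 were higher (13.3%) and 9 lower (30%), against 11.7% and 12.3% of all genes tested, so the share of rises was near the background. The 4 were SHFM1, now named SEM1, the small lid subunit outside the PSM names (0.27), NFE2L1, the transcription factor that induces proteasome genes when the proteasome is impaired (0.22), the ubiquitin-activating enzyme UBA1 (0.14) and the unfoldase VCP (0.10). NFE2L1 was at 412.3 and 418.1 CPM in sh-NC input and at 480.6 and 482.9 CPM in shMETTL14 input. Its relative NFE2L2 was lower (-0.19), as were the deubiquitinases USP14 (-0.19) and UCHL5 (-0.18), which act at the cap. KIAA0368, now named ECPAS, an adaptor and scaffold of the proteasome, had the lowest value (-0.30). The ubiquitin gene RPS27A (-0.22), the shuttle RAD23B (-0.17) and the VCP cofactor NPLOC4 (-0.18) were lower as well. In IP over input 5 of the 30 were higher and 19 lower in sh-NC (all genes 29.1% and 29.8%), and 6 and 21 in shMETTL14 (28.9% and 29.1%), with medians of -0.33 and -0.40 under TMM, and in the change 0 were called.

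Promoters were read for short motifs, the first of them TGACNNNGC, the core of the antioxidant response element. NFE2L1, whose RNA rose, and NFE2L2, whose RNA fell, both bind this element. Their part in the input changes was not tested. RefSeq (GRCh38.p14) promoters of 300 bases, 250 before and 50 after the gene start, were matched by symbol for 42 members; PSMA7, PSMB1, PSMB6, PSMB7, PSMD4 and PSMG3 had no entry. The core was found, on either strand, in 13 of 42 members (30.95%) and in 13.6% of 27305 promoters. The 13 members with it had input log2 changes from -0.09 to 0.10, and 0 of them were called, against 5 of the 27 tested members without it. Examples are given 5′ to 3′ on the gene's strand, with the core in capitals, for 2 lid subunits, a beta subunit and an activator.
PSMB3 (chr17:38752627-38752655, plus strand): gcctccgtttTGACTTTGCaaccaaacta
PSMD3 (chr17:39980760-39980788, plus strand): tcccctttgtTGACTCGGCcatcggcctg
PSMD12 (chr17:67366724-67366752, minus strand): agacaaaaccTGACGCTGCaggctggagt
PSME1 (chr14:24136098-24136126, plus strand): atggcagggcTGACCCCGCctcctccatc

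Other short motifs common in promoters of housekeeping genes were searched the same way on both strands. CCGGAAG, a motif of ETS family factors, was in 13 of 42 members (30.95%) and in 10.7% of all promoters. Of 12 tested members with CCGGAAG 2 were called in input, PSMC1 and PSMD7, against 3 of 28 without it. CCAAT, the motif of NF-Y, was in 19 (45.2%) and in 35.7% of all promoters. The pair of genes that fell in input, PSMD7 and PSME3, both hold CCAAT, but so do other members: of 18 tested members with it 2 were called in input, against 3 of 22 without it, and its holders' median log2 change was -0.0049. Their windows are shown with the motif, or its reverse complement in PSME3, PSMC2 and PSMD8, in capitals, followed by ETS-type windows of 2 ATPases and a lid gene. In PSMC2 the motifs CCAAT and CCGGAAG lie within the same window. A match describes letters in the window and not a bound site.
PSMD7 (chr16:74296606-74296630, plus strand): acggtacaggCCAATaccaggaggt
PSME3 (chr17:42833375-42833396, plus strand): agtctcggcgATTGGctgtgac
PSMC2 (chr7:103347610-103347636, plus strand): gcccaatttaCTTCCGGtggggaaggg
PSMC6 (chr14:52707083-52707109, plus strand): acggggccaaCCGGAAGgggagggctc
PSMD8 (chr19:38374544-38374570, plus strand): caaaagccaaCTTCCGGtcaccatctt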

How the data were processed

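The authors deposited raw counts of reads per gene for 8 MeRIP-seq libraries (polyadenylated RNA broken into short pieces, stranded libraries with molecular identifiers, paired reads). The submitters' processing notes name Trimmomatic 0.36 and GRCh38; which aligner and counter were used, with or without strand, and whether duplicates were removed is not given in the sources used here. In 359 pairs of a gene lying at least 90% inside an opposite-strand gene, read density was a median of 0.732 times that of the outer gene. In 215 such pairs on the same strand it was 0.3465 times. Reads on both strands therefore appear to have been counted, but true antisense RNA cannot be told apart. Values of overlapping genes are uncertain. Of the members, 12 share at least 10% of their exonic bases with another gene and 25 share none: PSMA1, PSMA2, PSMA6, PSMB8, PSMB10, PSMC1, PSMC5, PSMD1, PSMD7, PSMD9, PSMG2 and PSMG4 are the 12.

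Counts were tested in R 4.3.3 with edgeR 4.0.16 (filterByExpr, TMM, glmQLFit and glmQLFTest, Benjamini-Hochberg adjustment over all genes tested, threshold 0.05). Input RNA was compared over the 4 inputs (22245 genes). IP over input and its change came from a single model over all 8 libraries, with 4 group means (22953 genes). SE is the absolute log2 value over the square root of F. Replicate libraries differed by more than sampling noise in each group (chi-square per gene 2.43 to 3.99) and were counted separately. The protocol pairs the IP and input of a culture, and across genes their deviations had correlations of 0.00400 (sh-NC) and 5.70e-05 (shMETTL14). The culture was used as a block in an alternative fit.

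The members and gene lists were chosen with earlier results of these data known. Named genes are METTL14, the 5 largest rises and falls past the threshold in each comparison (with none, the 3 highest and 3 lowest), the 3 highest and lowest levels, the catalytic, activator, PSMF1 and PSMG genes, PSMD14, members with at least 10% shared exonic bases and pathway genes called in input; other genes were named after their values were seen, and some genes of the lists are counted but not reported here by name. Alternatives were DESeq2 1.42.0, other scalings and filters, leaving out each culture, and a minimum log2 value of 0.25. Scripts were tested on simulated counts. Figures were drawn with matplotlib 3.10.9.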

Additional observations from a re-analysis of the deposited data

How the results depend on the processing

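Both falls in input, PSMD7 and PSME3, were kept under RLE factors, library size only, factors from the 25% least enriched genes or from 13 mitochondrial mRNAs, DESeq2, both filters, the replicate block and every set with a culture left out. With members sharing under 10% of exonic bases 1 fall remained in the set, PSME3. The count of rises, 5 with TMM, became 8 with factors from the 25% least enriched genes and 16 with factors from 13 mitochondrial mRNAs. It became 2 with no filter beyond 1 count and 0 with an absolute log2 value of at least 0.25. Under the first and second of these scalings the members' median moved to 0.044 and 0.11, and that of all genes tested to 0.037 and 0.10. The share of all genes called under each setting is not given here, so these counts only describe the members. With a culture left out, rises ran from 0 to 5, where the lone culture of an arm is assumed to vary like the others.

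IP over input moved with the scaling. For the settings below the share of all genes called is not given, so the counts only describe the members. With factors from the 25% least enriched genes, 37 members were higher and 3 lower in sh-NC (median 0.55) and 38 higher and 4 lower in shMETTL14 (median 0.48), by construction. With 13 mitochondrial mRNAs 4 and 3 were higher (medians -0.60 and -0.61), with library size only 4 were higher in shMETTL14 (medians -0.49 and -0.51), and with at least 10 counts in every library the medians were -0.39 and -0.42. With an absolute log2 value of at least 0.25, 4 were higher in each arm. With a culture left out, the medians lay between -0.36 and -0.35 for sh-NC and between -0.39 and -0.37 for shMETTL14, and 4 to 8 members were higher in shMETTL14. Among the named genes called in sh-NC, the least enriched factors turned PSMB5 (0.34), PSMB6 (0.0087), PSMB7 (0.57), PSMB8 (0.55), PSMB10 (0.61), PSMD14 (0.64), PSME2 (0.30), PSME3 (0.47), PSME4 (0.40), PSMG1 (0.61), PSMG2 (0.10), PSMG3 (0.45) and PSMG4 (0.41) positive. In shMETTL14 they turned PSMB5 (0.17), PSMB7 (0.59), PSMB8 (0.32), PSMD14 (0.60), PSME2 (0.33), PSME3 (0.46), PSME4 (0.36), PSMG1 (0.63), PSMG2 (0.43), PSMG3 (0.37) and PSMG4 (0.30) positive. With 13 mitochondrial mRNAs PSMD2 stood at -0.032 and -0.068.

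For the change of IP over input, the IP libraries alone gave 3 members higher and 3 lower, a contrast that also holds the input change. The share of all genes called in that contrast is not given here, so these counts only describe the members. An unadjusted p under 0.05, chosen after seeing the data as was the setting on shared bases, gave 1 lower. Without sh-NC replicate 1, 1 was lower, and 0 with each other culture left out, for medians from -0.0015 to 0.02. The least enriched factors gave a median of -0.037. Pairing by culture as a replicate block kept 7 of 7 calls in input, 38 of 40 in sh-NC (PSMB10 and PSMD6 were lost) and 38 of 40 in shMETTL14 (PSMC2 and PSMD4 were lost), and the change stayed at 0 calls. Depth limits PSMB9, PSMB10 and PSMG2, whose counts are low.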
